A study of Mus musculus with 6 samples.

Results

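The genes described here are 9 genes of the red cell line: the transcription factor genes Gata1 and Klf1, the receptor genes Epor and Tfrc, and the late genes Alas2, Ahsp, Slc4a1, Ermap and Car1. They were chosen by name, with the globin genes left out, and each was read from the brightest of the probes whose RefSeq accession maps to its symbol. A probe was found in this way for 8 of the 9 genes, with 13 probes among them, out of 20284 genes named on the array. Ahsp, which encodes a chaperone of alpha-globin, was not matched and is not analysed here. Gata1, Klf1 and Epor are called the early genes and the others the late genes, since the first 3 act when cells enter the red cell line and most of the others are products of maturing red cells.

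The RNA came from KSL cells, the c-Kit positive, Sca-1 positive and lineage-negative fraction of blood-forming tissue in which stem cells lie. The knocked-out gene is called Tif1b in the labels and Trim28 in the reference, and it encodes a corepressor of transcription. Bone marrow KO cells carried CreERT and Tif1bf/f, from adult mice, on 2 arrays. Bone marrow WT cells carried CreERT and Tif1bw/w, from adult mice, on 2 arrays. Fetal liver KO cells carried Tie2-Cre and Tif1bf/f on 1 array, and fetal liver WT cells carried Tie2-Cre and Tif1bw/w on 1 array. All mice had the background C57BL6 (written C57/BL6 for replicate 2), and KO and WT cells of a tissue carried the same Cre. The genotype of bone marrow replicate 2 is written with Tif2b in place of Tif1b. The descriptions of bone marrow replicate 1 speak of Hp1gKD cells for the KO array and Hp1aKD cells for the WT array, of a c-Kit+ Lineage- fraction with no Sca-1 named, against their titles, cell fraction and genotypes, which were followed. Tie2-Cre is active in endothelial cells and in the blood cells that descend from them, and the promoter and induction of CreERT, exact ages and pooling of animals are not given in the sources used here. Tissue, Cre line, age and slide therefore cannot be told apart. Nothing says that arrays of a group came from separate mice, so p-values measure the spread between these arrays, which may be technical.

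Red cells arise when stem and progenitor cells switch on GATA1, a zinc finger factor that binds GATA sequences, and KLF1, a factor that binds CACCC-like sequences and activates globin and membrane genes. Erythropoietin then acts through its receptor EPOR, which signals by the kinase JAK2 and the factor STAT5 and keeps the precursors alive. Maturing cells take up iron through the transferrin receptor TFRC, make haem through ALAS2, and fill their membrane and cytoplasm with proteins such as the anion exchanger SLC4A1 and the carbonic anhydrase CAR1. Fetal liver is the main site of red cell formation before birth and bone marrow after it. The arrays address how loss of the corepressor alters expression in the stem cell fraction.

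In bone marrow the early genes were higher on both KO arrays than on both WT arrays, and Tfrc was lower, in either source of values, while no member passed the test. Such a separation was common. Of all genes tested, 37.2% with the authors' table and 28.5% with the scanner files had KO and WT arrays that did not overlap. Alas2 was higher on both KO arrays (0.10 and -3.92) than in the WT values of the authors' table, where it was not above background. By its scanner file the array labelled WT replicate 1 was at 3.05, above both KO arrays. In fetal liver KO the early genes were slightly lower than in fetal liver WT, as were most named genes (34.5% were higher). Slc4a1 and Car1 passed between the tissues, in opposite directions, in the table fit without the slide, where 22.9% of all genes passed. Neither passed in the scanner fit. For bulk samples such as these, more cells of a type and more RNA per cell cannot be told apart.

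Promoter sequences are shown for the 3 early genes, whose differences went the same way, and for Alas2, which lay furthest apart in bone marrow with the value table but closest to 0 in the scanner fit. Each is the stretch from 250 bases before to 50 bases after the annotated start of the gene, written 5′ to 3′ on the gene's strand, from RefSeq on GRCm38.p6. Capitals mark matches on either strand to the GATA motif, AGATAA, in which the first letter may also be T and the last G, and to the KLF motif, CCNCNCCC, where overlapping matches are joined. The windows are chrX:7967861-7968160 on the minus strand for Gata1, chr8:84901732-84902031 on the plus strand for Klf1, chr9:21963527-21963826 on the minus strand for Epor and chrX:150547167-150547466 on the plus strand for Alas2.
Gata1: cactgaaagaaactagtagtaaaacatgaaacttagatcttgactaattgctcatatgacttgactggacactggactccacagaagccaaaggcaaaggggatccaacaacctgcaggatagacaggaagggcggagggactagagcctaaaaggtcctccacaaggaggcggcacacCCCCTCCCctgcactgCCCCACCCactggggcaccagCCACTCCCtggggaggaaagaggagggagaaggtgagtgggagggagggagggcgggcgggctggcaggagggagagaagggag
Klf1: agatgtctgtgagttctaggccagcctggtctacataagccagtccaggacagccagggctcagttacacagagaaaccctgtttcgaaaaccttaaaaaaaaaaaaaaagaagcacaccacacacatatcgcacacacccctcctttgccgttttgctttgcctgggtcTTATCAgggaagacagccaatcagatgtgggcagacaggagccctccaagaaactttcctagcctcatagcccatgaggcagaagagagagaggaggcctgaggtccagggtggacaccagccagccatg
Epor: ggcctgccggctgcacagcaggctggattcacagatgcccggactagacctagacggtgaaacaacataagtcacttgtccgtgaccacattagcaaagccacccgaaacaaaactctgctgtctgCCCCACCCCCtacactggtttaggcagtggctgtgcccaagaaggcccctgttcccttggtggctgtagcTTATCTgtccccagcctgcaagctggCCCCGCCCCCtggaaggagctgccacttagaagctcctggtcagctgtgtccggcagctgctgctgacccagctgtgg
Alas2: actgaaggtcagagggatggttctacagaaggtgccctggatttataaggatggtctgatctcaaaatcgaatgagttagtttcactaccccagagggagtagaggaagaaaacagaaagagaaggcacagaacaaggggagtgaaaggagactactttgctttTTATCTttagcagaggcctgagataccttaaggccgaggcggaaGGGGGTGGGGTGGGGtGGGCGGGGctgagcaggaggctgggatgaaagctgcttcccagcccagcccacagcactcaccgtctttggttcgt
The Gata1 window held 0 GATA and 3 KLF matches, and the Klf1 window 1 GATA and 0 KLF matches. The Epor and Alas2 windows each held 1 GATA and 4 KLF matches, counting overlaps. Of 32851 windows of 300 bases over all genes, 29.8% held a GATA match and 49.5% a KLF match. The E-box motif CANNTG, searched as well and not capitalised, occurred 5 times in the Epor window, 1 time each in those of Gata1 and Klf1 and not in that of Alas2, against 72.3% of all windows with at least 1. Ermap (1 GATA match, 0 KLF) and Tfrc (0 GATA matches, 5 and 3 KLF in 2 windows) also had windows, and Slc4a1 and Car1 had no entry. A match is a description of letters and not a binding site.

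Every level is the log2 of a signal over the 75th percentile of its array, so 0 is the signal at that percentile and a step of 1 is 2-fold. The 75th percentile signal was 325 and 743 on the bone marrow KO arrays, 281 and 737 on the bone marrow WT arrays, 211 in fetal liver KO and 219 in fetal liver WT, and between 24383 and 31419 probes were well above background. Trim28 was at 1.28 and 0.75 on the bone marrow KO arrays, at 5.55 on WT replicate 2, at 1.68 in fetal liver KO and at 5.97 in fetal liver WT. The bone marrow array labelled WT replicate 1 went against its labels in its scanner file. Trim28 had a level of 2.45 there and of 5.18 in the authors' value table, and Kit, the gene of c-Kit, had 1.30 and 4.16, against 4.17 to 4.50 on the other 5 arrays. The summed level of 8 B cell markers was 7.87 in that scanner file, with all 8 above background, against 4.23 in its table column and 3.77 to 5.23 on the other arrays. The summed level of 8 megakaryocyte markers was -0.79 there, with 3 above background, against 6.96 in the table. Over 15080 genes the bone marrow KO arrays had r = 0.971, and the WT arrays 0.902 by the scanner file or 0.982 by the table. Ly6a, the gene of Sca-1, had 3.60 and 6.04 on the bone marrow KO arrays, 3.36 (value table) and 4.75 on the WT arrays, 0.77 in fetal liver KO and 0.31 in fetal liver WT. The summed level of 8 neutrophil markers was 8.04 and 4.67 on the bone marrow KO arrays, against 9.38 on WT replicate 2 and 10.5 (scanner file) or 10.3 (value table) on the array in doubt. That of 8 monocyte markers was 3.01 and 2.66 on the KO arrays, against 6.04 and 9.27 (scanner file) or 7.12 (value table). The part of these markers in the results was not tested. The members' levels and bone marrow differences are given from both sources of the array in doubt, other values from the source named beside them, and each slide held 1 KO and 1 WT array of 1 tissue.

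**Figure D1:**
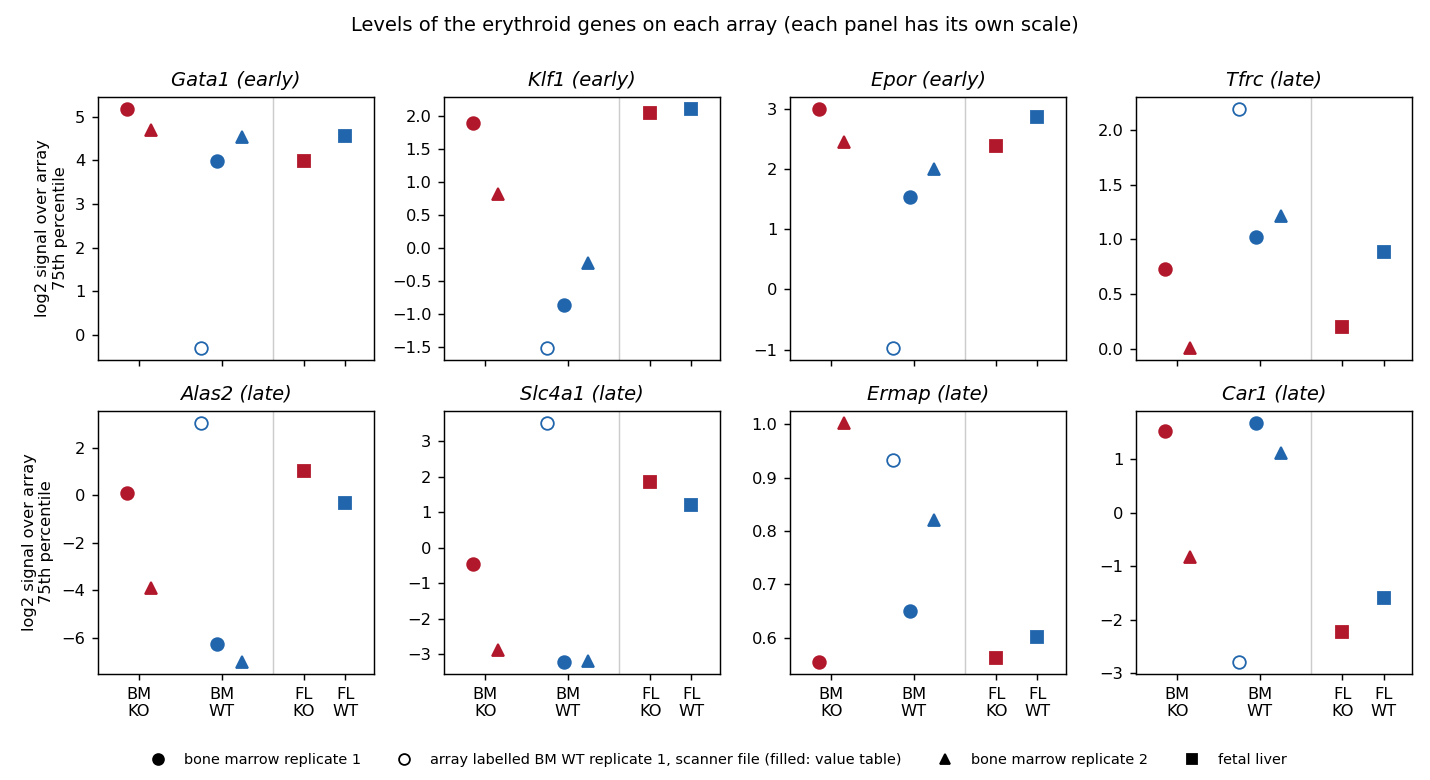
Level of each gene on every array, as log2 signal over the array's 75th percentile, in a panel per gene with its own scale: bone marrow (BM) KO and WT on the left, fetal liver (FL) KO and WT on the right, red for KO and blue for WT. The open circle is the scanner value of the bone marrow array labelled WT replicate 1 and the filled blue circle its value in the authors' table, at 3.05 and -6.27 for Alas2.

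Gata1 encodes the master factor of the red cell, megakaryocyte and mast cell lines. Its level was 5.19 and 4.69 on the bone marrow KO arrays, against 4.53 on WT replicate 2 and -0.31 (scanner file) or 3.996 (value table) on the bone marrow array labelled WT replicate 1. Both KO arrays lay above both WT arrays with either value. In fetal liver it was 3.98 in KO and 4.55 in WT. The bone marrow difference was 0.67 ± 0.33 in the value table (± SE, limma adjusted p = 0.570, with n = 2 arrays per genotype) and 2.83 ± 1.59 in the scanner files (adjusted p = 1.00). Megakaryocyte and mast cells also use Gata1. The summed level of 8 megakaryocyte markers was 7.82 and 7.96 on the KO arrays, against 6.96 (value table) and 6.73 on the WT arrays, with all 8 above background on each. That of 6 mast cell and basophil markers was 6.71 and 6.10 on the KO arrays, with all 6 above background, against 4.12 (value table) and 4.51 on the WT arrays, with 5 and 6 above background. Fcer1a (5.86 and 4.83 on the KO arrays, 2.70 and 2.13 on the WT arrays) and Cpa3 (5.27 and 5.05, against 1.57 and 3.37) were higher on both KO arrays, while Mcpt8 was at 2.54 and 0.0071 on the KO arrays and 2.71 and 2.11 on the WT arrays, and Prss34 was lower on both KO arrays, with the table value in each case. The median level of the 6 overlapped, at 1.58 and 1.25 on the KO arrays and 0.80 and 1.83 on the WT arrays. The part of these markers in the Gata1 difference was not tested.

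Klf1 encodes the factor that drives the globin and membrane genes of red cells. It stood at 1.89 and 0.81 on the bone marrow KO arrays, at -0.23 on WT replicate 2, and at -1.53 (scanner file) or -0.87 (value table) on the bone marrow array labelled WT replicate 1. The KO and WT arrays did not overlap in either source, and the gap between the nearest of them was larger than that between the WT arrays in the value table but smaller than that between the KO arrays. In fetal liver the level was 2.04 in KO and 2.11 in WT, above each bone marrow array. Klf1 differed by 1.90 ± 0.45 in the value table, or 3.74-fold (n = 2 arrays per genotype, limma adjusted p = 0.181), and by 2.23 ± 0.65 in the scanner files (adjusted p = 1.00). With the slide as a block the table's adjusted p was 0.0638.

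Epor encodes the erythropoietin receptor. It was at 3.00 and 2.45 on the bone marrow KO arrays, against 1.99 on WT replicate 2 and -0.98 (scanner file) or 1.54 (value table) on the bone marrow array labelled WT replicate 1. As for Gata1 and Klf1, both KO arrays were above both WT arrays. In fetal liver KO it was at 2.39 and in fetal liver WT at 2.86. The bone marrow difference was 0.96 ± 0.32 in the table, or 1.95-fold (n = 2 arrays per genotype, limma adjusted p = 0.349), and 2.22 ± 1.03 in the scanner files (adjusted p = 1.00).

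Tfrc encodes the transferrin receptor, through which dividing cells and red cell precursors take up iron. It stood at 0.73 and 0.0053 on the bone marrow KO arrays, at 1.21 on WT replicate 2, and at 2.19 (scanner file) or 1.02 (value table) on the bone marrow array labelled WT replicate 1. In fetal liver it was 0.20 in KO and 0.88 in WT. Tfrc was thus lower in KO than in WT in all 3 pairs and in both sources, the only member of which this held. The differences were -0.75 ± 0.33 in the bone marrow table values (n = 2 arrays per genotype, limma adjusted p = 0.516) and -1.33 ± 0.53 in the scanner files (adjusted p = 1.00). In the model over all 6 arrays, with tissue as a term, it was -0.72 ± 0.24 with the table value (adjusted p = 0.411). Its probe was printed in 10 spots, whose log2 levels had an SD of 0.053 to 0.091 within an array, so spot noise was small beside the differences between arrays. The other 2 Tfrc probes were also lower in KO in each pair, with differences of -0.32 and -0.85 in bone marrow pair 1 of the table, -1.14 and -1.27 in pair 2, and -0.089 and -0.30 in fetal liver.

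Alas2 encodes the erythroid form of 5-aminolevulinate synthase, which performs the first step of haem synthesis. It was at 0.10 and -3.92 on the bone marrow KO arrays and at -7.02 on WT replicate 2, where it was not well above background. The bone marrow array labelled WT replicate 1 had 3.05 by its scanner file, above both KO arrays, and -6.27 by its table column, below the level taken as background there. In fetal liver it was at 1.01 in KO and -0.33 in WT. Where a gene is not above background in a group, the fold is a bound, the mean of the brighter group over that of the dimmer arrays, each taken at the dimmest signal that still counted as well above background on it, or at the signal of the probe itself where that was higher. With the table value Alas2 was at least 5.51-fold higher in bone marrow KO (mean -1.91) than in bone marrow WT (mean -6.62 as measured), and it did not pass (limma adjusted p = 0.232, fitted difference 4.71 ± 1.26, n = 2 arrays per genotype). It was at least 13.8-fold higher in pair 1 and at least 2.204-fold higher in pair 2. With the slide as a block Alas2 passed in the table (adjusted p = 0.0305), where 7.67% of all genes passed. Alas2 entered the test through the KO arrays alone and its WT values lie at background, so no support is drawn from that call. The scanner fit gave 0.079 ± 3.48 (adjusted p = 1.00), and its pairs differed by -2.95 and 3.11.

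Slc4a1 encodes band 3, the anion exchanger of the red cell membrane. It was at -0.45 and -2.89 on the bone marrow KO arrays, at -3.18 on WT replicate 2, and at 3.53 (scanner file) or -3.23 (value table) on the bone marrow array labelled WT replicate 1. The KO arrays lay 2.45 apart and the table's WT values 0.049 apart, and KO replicate 2 lay 0.29 above WT replicate 2. In fetal liver it was at 1.85 in KO and 1.22 in WT. The bone marrow difference was 1.53 ± 0.78 in the table and -1.84 ± 2.305 in the scanner files (n = 2 arrays per genotype, limma adjusted p = 0.606 and 1.00). In the table without KO replicate 2 it was 2.76 ± 0.38 and passed (adjusted p = 0.00225), in a fit with 1 KO array. Globin genes, the products of late red cells, moved with Alas2 and Slc4a1: their summed level was 9.19 and 6.15 on the bone marrow KO arrays, against 3.66 on WT replicate 2 and 11.1 (scanner file) or 4.32 (value table) on the bone marrow array labelled WT replicate 1. Their part in these differences was not tested.

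Ermap encodes an immunoglobulin-like protein of the red cell membrane, which in humans carries the Scianna blood group. Its brightest probe hardly varied, at 0.55 and 1.00 on the bone marrow KO arrays, 0.82 on WT replicate 2, 0.93 (scanner file) or 0.65 (value table) on the bone marrow array labelled WT replicate 1, 0.56 in fetal liver KO and 0.60 in fetal liver WT. The bone marrow difference was 0.044 ± 0.28 in the table (n = 2 arrays per genotype, limma adjusted p = 0.993). The other 2 Ermap probes had another pattern. A_51_P391716 was at 0.59 and -1.88 on the bone marrow KO arrays, -2.21 on WT replicate 2, -1.07 (scanner file) or -1.91 (value table) on the array in doubt, 0.42 in fetal liver KO and 1.01 in fetal liver WT. A_55_P2153382 was at -1.19 and -3.31 on the KO arrays, -3.70 on WT replicate 2, -2.15 (scanner file) or -3.40 (value table) on the array in doubt, -1.43 in fetal liver KO and -0.74 in fetal liver WT. On both probes KO replicate 1 was the highest bone marrow array, and KO replicate 2 lay above both WT arrays with the table value and below the array in doubt with the scanner value. Which transcripts the probes read is not given in the sources used here.

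Car1 encodes a carbonic anhydrase of the red cell cytoplasm that is also made by early progenitors. It stood at 1.54 and -0.82 on the bone marrow KO arrays, at 1.12 on WT replicate 2, and at -2.80 (scanner file) or 1.69 (value table) on the bone marrow array labelled WT replicate 1. In fetal liver it was at -2.23 in KO and -1.59 in WT. The bone marrow groups overlapped, with a difference of -1.05 ± 0.77 in the table and 1.20 ± 1.504 in the scanner files (n = 2 arrays per genotype, limma adjusted p = 0.810 and 1.00). The second Car1 probe differed by -0.31 and -2.25 in bone marrow pairs 1 and 2 of the table, and was not well above background on either fetal liver array.

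**Figure D2:**
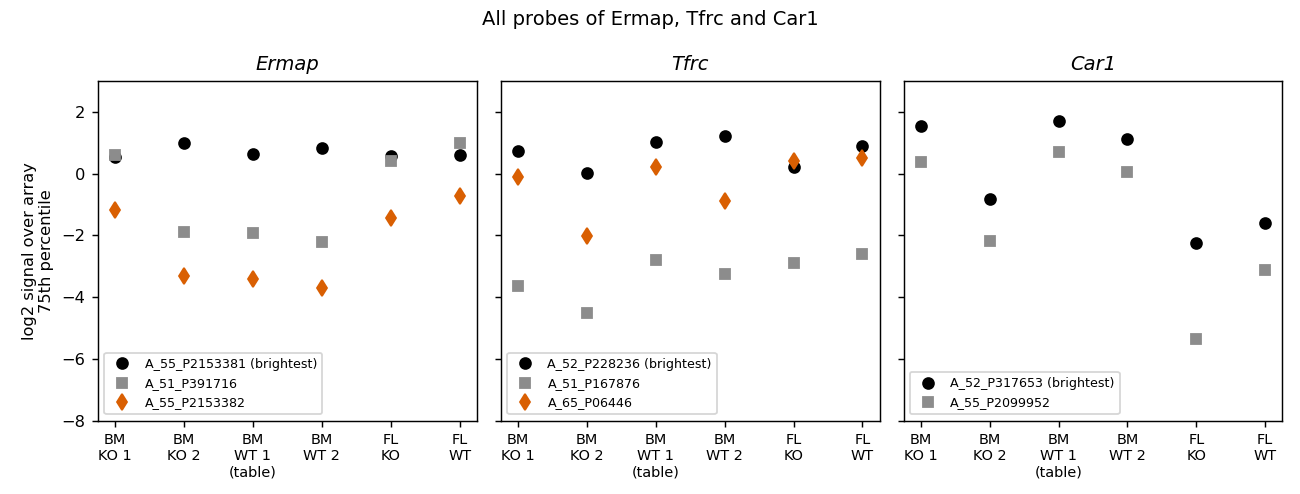
Levels of every probe of Ermap, Tfrc and Car1, as log2 signal over the array's 75th percentile, on the bone marrow (BM) KO and WT arrays, with WT 1 from the authors' table, and the fetal liver (FL) KO and WT arrays. Black points are the brightest probe, and for Ermap they stay between 0.55 and 1.00 while the other 2 probes range from -2.21 to 1.01 and from -3.70 to -0.74.

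In bone marrow KO against WT, limma called 0 of 8 members in the scanner files, where 0% of 13011 genes passed, with 548 genes and 1 member (Klf1) at an unadjusted p under 0.05. In the value table it called 0 of 8 members and 0.876% of 12783 genes (0.477% higher and 0.399% lower in KO), with 1411 genes and 3 members (Klf1, Alas2 and Epor) at an unadjusted p under 0.05. By position alone, 6 of 8 members had KO and WT arrays that did not overlap in the table, 5 higher in KO (Gata1, Klf1, Epor, Alas2 and Slc4a1) and 1 lower (Tfrc), where 37.2% of all genes did not overlap, 17.6% higher and 19.6% lower. In the scanner files this held for 4 members, Gata1, Klf1 and Epor higher and Tfrc lower, where 28.5% of all genes did not overlap, 15.4% higher and 13.1% lower. The median difference of the members was 0.82 in the table, against -0.049 over all genes tested, and 0.64 in the scanner files, against 0.057. Alas2 entered the table test through the KO arrays alone, with its WT values at background. Its place above the WT values was thus close to fixed by the filter. No support is drawn from Alas2 in any count, median or call from the table. Leaving out the bone marrow array labelled WT replicate 1 from the scanner fit gave 0 members, with Klf1 at 1.58 ± 0.58 (adjusted p = 0.462) and Alas2 at 5.11 ± 1.13 (0.0615). Leaving out WT replicate 2, so that the array at odds with its labels was the only WT array, gave 7 members (all but Ermap) and 2391 genes. With the table values Alas2 passed without KO replicate 1, 3 members (Klf1, Alas2 and Slc4a1) without KO replicate 2, and 2 members (Klf1 and Alas2) without WT replicate 2, with 293, 545 and 656 genes in all, each in a fit with 1 array in a group whose spread is taken from the other.

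The early and late genes separated most in bone marrow pair 1. There the KO minus WT difference of the 3 early genes had a median of 1.47 with the table value, from 1.19 to 2.77, and that of the 5 late genes a median of -0.096, from -0.29 to 6.37. With the scanner value the medians were 3.99 for early and -1.46 for late genes. In pair 2 they were 0.46, from 0.16 to 1.04, and 0.18, from -1.95 to 3.11. In fetal liver they were -0.47, from -0.57 to -0.067, and -0.040, from -0.68 to 1.34. The early genes therefore lay above 0 in both bone marrow pairs and below 0 in fetal liver, while the late genes went both ways in every pair. In fetal liver 34.5% of all named genes were higher in KO, with a median of -0.061, near the Klf1 difference. The early minus late difference of medians was 1.56 (table) or 5.45 (scanner) in pair 1, 0.27 in pair 2 and -0.43 in fetal liver, and with the mean over all probes of a gene the table's pair 1 value was -0.072. The 2 bone marrow pairs have WT and KO arrays of their own, and no test was made over so few genes.

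**Figure D3:**
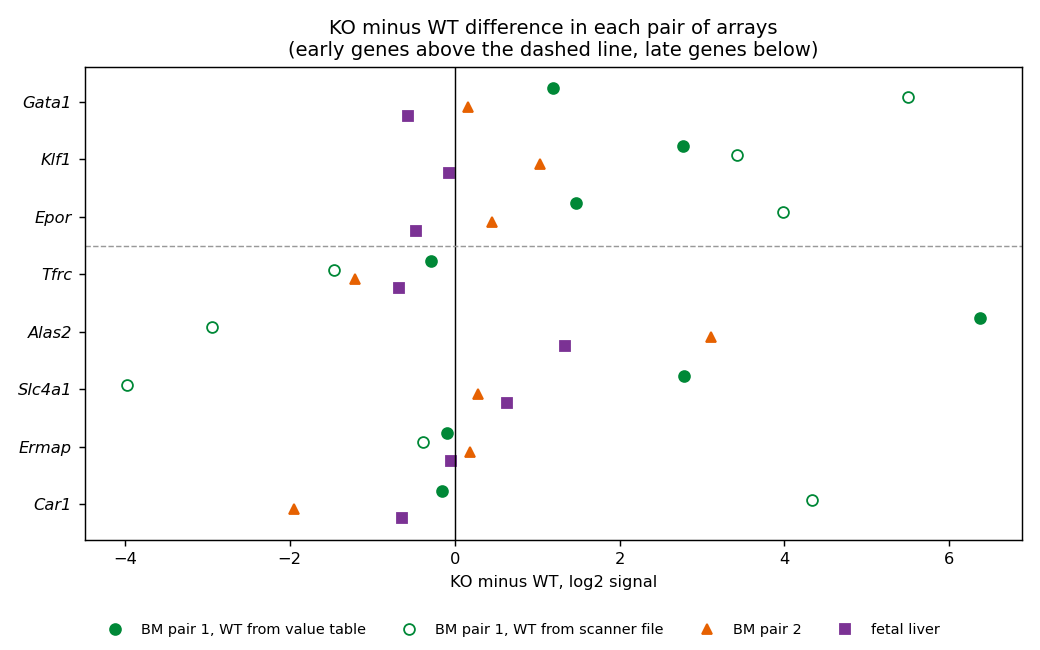
KO minus WT difference in log2 signal of each gene in bone marrow (BM) pair 1, BM pair 2 and fetal liver, with early genes above the dashed line and late genes below. For the early genes both BM pairs lie right of 0, from 0.16 to 5.50, and fetal liver left of it, from -0.57 to -0.067, and for Alas2, Slc4a1 and Car1 in pair 1 the open circles of the scanner file fall on the other side of 0 from the filled ones.

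In fetal liver, 1 of 8 members was at least 2-fold apart, Alas2, at 2.54-fold higher in KO, where 9.75% of 12701 genes were at least 2-fold apart, 5.33% higher and 4.42% lower. Slc4a1 was 1.55-fold higher in KO, and Tfrc and Car1 lay lower in KO (-0.68 and -0.64), with 1 array per genotype and no test. The summed globin level was 10.74 in fetal liver KO and 9.86 in fetal liver WT. In the bone marrow pairs, 5 of 8 members were at least 2-fold apart in pair 1 of the table, where 12.1% of all genes were, 6.23% higher and 5.87% lower. In pair 2 it was 4 of 8, where 10.9% of all genes were, 6.21% higher and 4.72% lower. The members at least 2-fold higher were Gata1, Klf1, Epor, Alas2 and Slc4a1 in pair 1 and Klf1 and Alas2 in pair 2, and Tfrc and Car1 were at least 2-fold lower in pair 2. Alas2 was counted in these pairs through its KO arrays alone, so no support is drawn from it there. With the scanner value of pair 1 it was 7 of 8, 4 higher and 3 lower, where 31.9% of all genes were, 17.6% higher and 14.3% lower.

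Over both tissues, with tissue as a term, the genotype effect called 0 of 8 members in either source, where 0.17% of 13499 genes passed in the table (0.133% higher and 0.037% lower) and 0% of 13661 in the scanner fit. At an unadjusted p under 0.05 the scanner fit had 466 genes and 1 member (Tfrc). The nearest in the table was Tfrc, given above, and Alas2 at 3.59 ± 1.22 (limma adjusted p = 0.418). The difference of the KO effect between fetal liver and bone marrow, tested as an interaction that takes the lone fetal liver arrays to vary like the bone marrow arrays, called 0 members and 0% of genes in either source, where an unadjusted p under 0.05 was reached by 950 genes in the table and 351 by scanner values. For the early genes this difference was -1.24 ± 0.57 for Gata1, -1.97 ± 0.80 for Klf1 and -1.43 ± 0.57 for Epor in the table, with adjusted p = 0.855, 0.737 and 0.721.

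Between the tissues, limma called 2 of 8 members in the table fit, where 22.9% of 13499 genes passed, 8.92% higher and 14% lower in bone marrow. Slc4a1 was lower in bone marrow, with a mean of -2.44 over the 4 bone marrow arrays and 1.53 over the 2 fetal liver arrays (-3.97 ± 0.69, adjusted p = 0.0175). Car1 was higher, with means of 0.88 in bone marrow and -1.91 in fetal liver (2.79 ± 0.66, adjusted p = 0.0370). Alas2, which was above background on only 2 of the 4 bone marrow arrays in the table, had a fitted difference of -4.61 ± 1.29 (adjusted p = 0.0553), and Klf1 differed by -1.67 ± 0.56 (0.0798), while Gata1 (0.33 ± 0.37), Epor (-0.38 ± 0.39), Tfrc (0.20 ± 0.26) and Ermap (0.18 ± 0.21) lay closer to 0. With the slide as a random block, Slc4a1 (adjusted p = 0.0716) and Car1 (0.101) did not pass. Both calls were also lost without either bone marrow WT array, at adjusted p = 0.0506 and 0.0574 for Slc4a1 without WT replicates 1 and 2 and 0.0896 for Car1 without either. Without KO replicate 1 Alas2 passed (0.0148) and Car1 did not (0.0529). In the scanner fit 0 members and 2.1% of 13661 genes passed (0.871% higher and 1.23% lower in bone marrow), with 1 member (Klf1) and 3691 genes at an unadjusted p under 0.05.

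The rest of the erythroid pathway was read from 6 lists of 84 genes, all with a named probe. None of the genes tested (76 in either source) passed in bone marrow KO against WT, while 11 by table values and 3 by scanner values had an unadjusted p under 0.05. The red cell membrane and skeleton list had the largest median in bone marrow pair 1 of the table. Of its 18 genes, 17 were higher on the KO array of pair 1 in the table, 14 of them at least 2-fold, with a median difference of 1.40, against 0.14 over all named genes. Over all named genes, 61% were higher in that pair and 6.29% at least 2-fold higher. Of the 18 genes, 16 were above background on that KO array and 12 in that WT column. In pair 2, 14 of 18 were higher and 4 at least 2-fold, with a median of 0.41, where 51.4% of all genes were higher and 6.5% at least 2-fold. In fetal liver 6 of 18 were higher, with a median of -0.13, where 34.5% of all genes were higher. Rhd, a gene of the Rh blood group proteins, was at 2.24 ± 1.19 in the bone marrow table fit (limma adjusted p = 0.637), while a fit with a slide term gave an SE of 0.25 and an adjusted p of 0.0119. In the scanner files it was 0.48 ± 2.13 (adjusted p = 1.00).

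Of the 16 erythroid transcription regulators, 13 were higher in KO in pair 1 of the table and 10 in pair 2, with medians of 0.41 and 0.18, and 9 in fetal liver, with a median of 0.027, to be read against the same shares of all genes (61%, 51.4% and 34.5%). Gata2, the factor that precedes Gata1 in progenitors, differed by 1.08 ± 0.30 in bone marrow and Gfi1b, a repressor of the red cell and megakaryocyte lines, by 0.81 ± 0.33 (limma adjusted p = 0.243 and 0.464). Of the 11 genes of erythropoietin receptor signalling, 9 were higher in KO in each of the 3 pairs, with medians of 0.43 and 0.29 in bone marrow pairs 1 and 2 and 0.63 in fetal liver. These were not the same 9 genes, since Pim1 was lower in KO in both bone marrow pairs and Stat5a in fetal liver. Socs2, a feedback inhibitor that STAT5 induces, was at 2.65 and 1.33 in bone marrow and 2.35 in fetal liver (1.99 ± 0.40 in bone marrow, adjusted p = 0.126), and the survival gene Bcl2l1 at 0.96 ± 0.29 (0.292). With the scanner value of pair 1, 15 of the 18 membrane genes, 10 of the 16 regulators and 6 of the 11 signalling genes were higher in KO, with medians of 0.75, 0.86 and 0.070, where 64.9% of all genes were higher.

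With the table value, the 17 genes of haem synthesis, transport and breakdown had medians of 0.18 and -0.088 in bone marrow pairs 1 and 2 and -0.24 in fetal liver. Alas1, the housekeeping counterpart of Alas2, lay lower in KO in bone marrow, at -2.08 and -1.83 in the bone marrow pairs and 0.38 in fetal liver (-1.95 ± 0.45 in bone marrow, limma adjusted p = 0.176), and the biliverdin reductase gene Blvrb was at 0.92 ± 0.36 (0.429). The 11 genes of iron uptake, storage and export had medians of 0.15, 0.00077 and 0.062, with the iron exporter gene Slc40a1 at 1.49 ± 0.77 and the iron regulatory protein gene Aco1 at -0.57 ± 0.33 (adjusted p = 0.617 and 0.698). Among 11 other late genes, with medians of 0.38, 0.13 and -0.025, the carbonic anhydrase gene Car2 was at 1.46 ± 0.30 and Bpgm, which makes bisphosphoglycerate, at 0.90 ± 0.25 (adjusted p = 0.132 and 0.244). With the slide as a block, where 7.67% of all genes passed in the table, Alas1 (adjusted p = 0.00718), Car2 (0.0248), Socs2 (0.0341), Gata2 (0.0344) and Bpgm (0.0418) passed. In the scanner files, where no gene passed with or without the block, the differences were -1.11 ± 0.48 for Alas1, 2.27 ± 0.79 for Car2, 0.70 ± 0.62 for Socs2, 4.004 ± 2.07 for Gata2 and 0.60 ± 0.42 for Bpgm. The pair 1 medians of the haem, iron and other late lists with the scanner value were 0.69, 0.56 and 0.15.

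**Figure D4:**
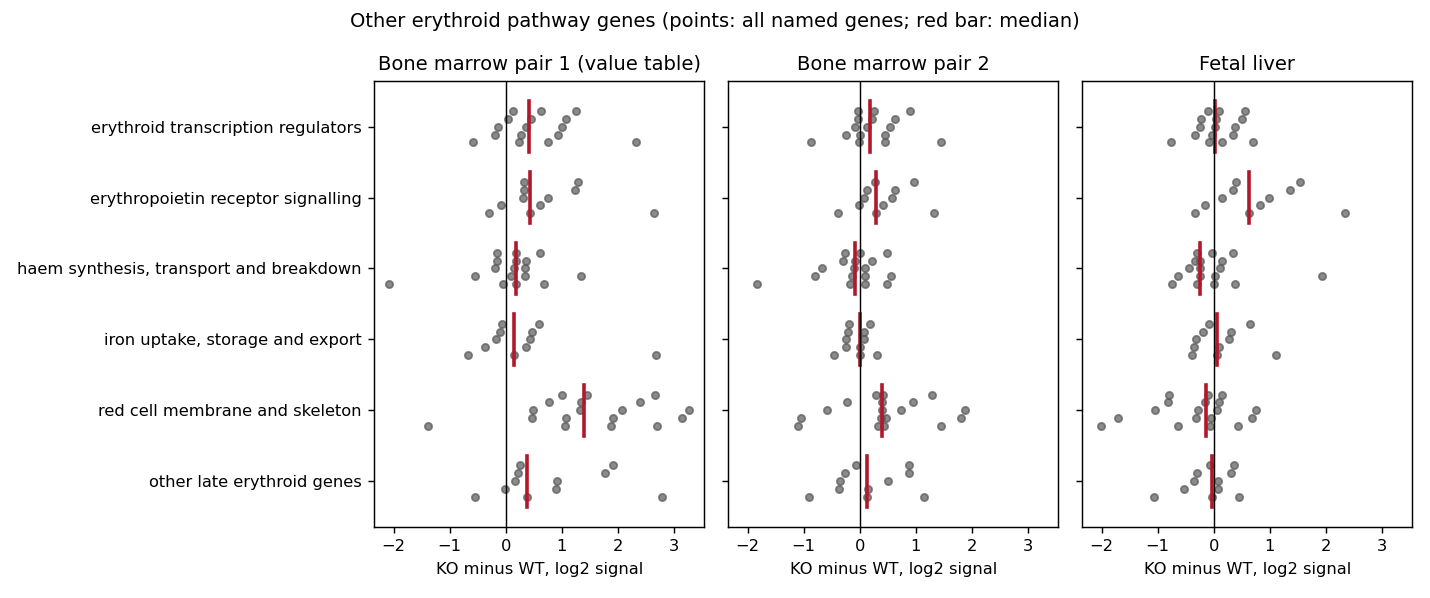
KO minus WT difference in log2 signal of the 84 other erythroid pathway genes in bone marrow pair 1 (authors' table), bone marrow pair 2 and fetal liver, with a point per gene and a red bar at the median of each list. The red cell membrane and skeleton list lies furthest right in bone marrow pair 1, with its median at 1.40, against 0.41 in pair 2 and -0.13 in fetal liver.

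Between the tissues, 16 of 79 pathway genes passed in the table (7 higher and 9 lower in bone marrow), a share near the 22.9% of all genes. Higher were the cytokine feedback inhibitor genes Socs3 (4.38 ± 0.33, limma adjusted p = 0.00282) and Socs2, the second transferrin receptor gene Tfr2 (2.29 ± 0.24, 0.00559), Aqp1, Car2, the tropomodulin gene Tmod1 and Trim58. Tmod1 and Trim58 were not well above background in either fetal liver array and entered the test through bone marrow alone. No support is drawn from their calls, with or without the slide. Tmod1 was at least 2.47-fold higher in bone marrow (mean -1.95) than in fetal liver (mean -5.10 as measured, adjusted p = 0.00569), and no bound can be given for Trim58. The lower genes included Mgst3 (-2.34 ± 0.35, 0.0126), the membrane gene Kel, Lyl1, and 5 genes of haem synthesis and breakdown, Alas1 (-2.57), Cpox (-1.08), Ppox (-0.88), Fech (-0.79) and Hmox1 (-1.65). With the slide as a random block Socs3, Tfr2, Tmod1 and Mgst3 still passed, with adjusted p between 0.0144 and 0.0339, and the others did not. Socs3 was also the 1 pathway gene called in the scanner fit (adjusted p = 0.0306).

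The mean profile of the 8 members over the 6 arrays was most like that of Atp1b2 (r = 0.986), Slc40a1 (0.9801), Abcg4 (0.977), Mst1r (0.976) and Slc38a5 (0.975) among 2982 genes that spanned at least 2 log2 units, with the table value. With the scanner value the 5 most alike of 4041 genes were Slc38a5 (0.996), Abcg4 (0.977), Slc40a1 (0.975), Ccr1l1 (0.975) and Serpinf2 (0.974). Each member's levels were centred on their own mean but not scaled, so the members with the widest ranges, Alas2 and Slc4a1, weighed most in the profile. These correlations are a description over 6 arrays that share slides. Among the members themselves, with the table value, Klf1 and Alas2 varied together (r = 0.958), as did Alas2 and Slc4a1 (0.927) and Klf1 and Epor (0.902), while Gata1 and Slc4a1 did not (-0.055). Alas2 was not above background on either bone marrow WT array there. With the scanner value r was 0.051 for Klf1 and Alas2, 0.937 for Alas2 and Slc4a1, 0.884 for Klf1 and Epor and -0.687 for Gata1 and Slc4a1.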

How the data were processed

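Total RNA (10 ng) was amplified and Cy3-labelled for one-colour Agilent arrays, per the labels' protocols. The scanner files the authors deposited give an intensity for every spot from Agilent Feature Extraction 10.7.1.1 (version per the submitters' processing notes), and the signal used is corrected for background. The deposited value table is a linear ratio. For 5 arrays it equals the scanner signal over a constant near the 75th percentile (within 1% for 100% of probes with a ratio of at least 0.1), so it runs with the signal and is not centred by gene. On the bone marrow array labelled WT replicate 1 this held for 1.40% of probes. Column medians were 0.056 to 0.0709, and how the authors chose the constant is not given in the sources used here.

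From the scanner files, the 75th percentile over probes was subtracted from log2(gProcessedSignal) on each array, after control and outlier spots were dropped and spots of a probe averaged. RefSeq accessions named 26762 of 55681 probes, and the brightest probe over the 6 arrays stood for a gene. Tests used limma 3.58.1 in R 4.3.3 (lmFit, eBayes, Benjamini-Hochberg adjusted p under 0.05 over all genes tested), on genes well above background throughout at least 1 group. Where the table column replaced the scanner file in doubt, a level of -3.7 replaced the flags; this rule matched 99.15% of flags on bone marrow KO replicate 1. Each slide, per the file headers, is a replicate pair, and same-numbered bone marrow arrays deviated together by r = 0.642 over 11983 genes in the table and 0.090 over 11765 genes in the scanner files (2 pairs). The fits were tested on simulated arrays with known changes. Those had no slide effect and no array at odds with its labels, so that test does not cover either. The genes, lists and tests were chosen with earlier results of these data known. Pathway genes are named if called in any fit or among the 2 with the largest absolute bone marrow difference of a list in the table, and the mast cell genes named were chosen after their values were seen. Some genes that this rule names are not reported here. The number of arrays limits the precision.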

Additional observations from a re-analysis of the deposited data

Results flagged for a closer look

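For Gata1, Klf1 and Epor, the KO minus WT difference in fetal liver had the opposite sign to that in both bone marrow pairs, whichever source was used for the bone marrow array labelled WT replicate 1. In fetal liver the difference was -0.57 for Gata1, -0.067 for Klf1 and -0.47 for Epor, from 1 array per genotype. In bone marrow pairs 1 and 2 it was 1.19 and 0.16 for Gata1, 2.77 and 1.04 for Klf1, and 1.47 and 0.46 for Epor with the table value. The interaction of tissue and genotype did not pass for any of the 3 genes (limma adjusted p = 0.855, 0.737 and 0.721 in the table, and 1.00 for each in the scanner files). The Klf1 difference in fetal liver was small beside the 1.09 that separated the bone marrow KO arrays. For Epor it was smaller in size than the 0.56 between those arrays. For Gata1 it was only slightly larger than the 0.49 between the KO arrays and the 0.54 between the WT arrays with the table value. The Klf1 difference also lay near the fetal liver median of -0.061 over all named genes, of which 34.5% were higher in KO. Cre line, age and slide differ with the tissue and cannot be told apart from it.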

How the results depend on the processing

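Few arrays limit these results: with 2 per group, leaving out 1 array changes many calls. Normexp was run on the median spot signal, a choice made after seeing the data, as were the alternatives for the tissue fit on the table. In the bone marrow scanner fit, using the table gave 112 genes and turned Slc4a1 (1.53), Ermap (0.044) and Car1 (-1.05). Normexp (-0.89) and quantile scaling (-0.39) turned Alas2, and the mean of all probes turned Ermap (0.53). Leaving out each replicate gave 0 to 7 members and 0 to 2391 genes, the highest without WT replicate 2, with Alas2 from -4.96 to 5.11, Slc4a1 from -5.19 to 1.51, Ermap from -0.32 to 0.13 and Car1 from -0.77 to 3.16. In the table fit the replicate block gave 1 member (Alas2) and 981 genes, no filter gave 11 genes, and the filter on all arrays 27. Leaving out each replicate gave 0 to 3 members and 88 to 656 genes, with Ermap from -0.18 to 0.27 and Car1 from -2.23 to 0.13. The replicate block changed no other call of a member, in the scanner fit or in the genotype effect over both tissues.

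For the genotype effect over both tissues the table gave 23 genes and turned Slc4a1 (1.23), Ermap (0.016) and Car1 (-0.91), with the same values when the table was combined with the replicate block, and normexp turned Alas2 (-0.26). Leaving out each replicate gave Gata1 from -0.012 to 2.76, Alas2 from -2.26 to 3.499, Slc4a1 from -2.70 to 1.13, Ermap from -0.20 to 0.055 and Car1 from -0.71 to 1.53. In bone marrow against fetal liver the scanner fit gave 287 genes, against 3089 genes, 2 members and Gata1 at 0.33 with the table and 191 genes with normexp. Leaving out each replicate gave 0 to 1553 genes and Gata1 from -1.54 to 0.54. The table fit gave 0 members and 825 genes with the slide as a random block, and 1 member and 1791 genes with no filter. The mean of all probes turned Tfrc (-0.59) and Ermap (-1.24), and leaving out each replicate gave 0 to 2 members and 1169 to 1696 genes. For the interaction the table turned Alas2 (-3.36), Slc4a1 (-0.90), Ermap (-0.084) and Car1 (0.41), and normexp Ermap (-0.011). Leaving out each replicate gave 0 to 6 members and 0 to 1438 genes, with Alas2 from -3.77 to 6.30, Slc4a1 from -0.88 to 5.83, Ermap from -0.17 to 0.28 and Car1 from -3.80 to 0.12. With the mean of all probes, 2 members were at least 2-fold apart in fetal liver, and the early minus late difference of pair 1 in the table was -0.072. The causes of these shifts were not tested.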

Other observations

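The bone marrow KO arrays differed from each other in several late erythroid genes and in the early gene Klf1. KO replicate 1 was higher than KO replicate 2 for 7 of 8 members, by 4.02 for Alas2, 2.45 for Slc4a1, 2.36 for Car1 and 1.09 for Klf1 on the log2 scale. Of all 14062 genes measured, 8716 were higher in KO replicate 1, with a median difference of 0.17. At least 2-fold higher were 4 of 8 members, which is 50% of them, against 5.14% of all 14062 genes measured. Globin genes were higher in 7 of 7 cases, with a median of 2.42, and of the 17 measured genes of the red cell membrane and skeleton 8 were at least 2-fold higher and 2 at least 2-fold lower. The 16 erythroid transcription regulators had a median difference of 0.044 and none was 2-fold apart. Of the 10 measured genes of the other late list, 1 was at least 2-fold higher and 0 lower, with a median of 0.35. Of the 17 haem genes 0 were at least 2-fold apart, with a median of 0.49. Of the 7 measured B cell markers 0 were higher in replicate 1, with a median of -2.13. Between the bone marrow WT arrays, with the table value, 0 of 7 measured members were 2-fold apart and the globin genes had a median difference of 0.18.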
